A study of Mus musculus with 6 samples.

Results

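NRF2, encoded by Nfe2l2, its inhibitor KEAP1 and 8 genes that NRF2 is known to induce were described in livers of mice given the small molecule DDK or vehicle. The genes were taken by symbol: Nfe2l2 and Keap1, the glutathione synthesis genes Gclc and Gclm, the quinone, epoxide, thioredoxin and sulfiredoxin enzyme genes Nqo1, Ephx1, Txnrd1 and Srxn1, and the NADPH supply genes G6pdx and Pgd. All 10 were among the 22173 symbols measured, and all 10 passed the filter on low values that left 10681 genes for testing. Glutathione transferases, another large class of NRF2 targets, were left out of this choice.

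The samples were 6 libraries of whole liver, 3 from DDK-treated and 3 from vehicle-treated wild-type Mus musculus. Both groups were fed the HFHC diet from 6 weeks of age for 16 weeks, and DDK or vehicle was given in the last 4 of those weeks. Mice on another diet are not analysed here, so every value is a level under HFHC feeding. The labels give the diet and the compound by abbreviation only. DDK is a limonoid according to the title of the series. Sex, strain and dose are not given in the sources used. The series asks how DDK acts in steatohepatitis, a liver disease of fat, inflammation and scarring, and its title speaks of mitochondrial redox balance.

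NRF2 is a transcription factor that is made and destroyed continuously. KEAP1 binds it in the cytoplasm and hands it to the CUL3 and RBX1 ubiquitin ligase. Electrophiles and oxidants modify cysteines of KEAP1, NRF2 then escapes destruction, enters the nucleus, pairs with a small MAF protein and binds the antioxidant response element (ARE) of its target genes. Much of this control acts on the protein, which RNA-seq does not measure. In liver the targets supply glutathione and NADPH, reduce quinones, open epoxides and repair oxidized thiol proteins.

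The ARE has a core that can be written TGACNNNGC, and its occurrence near the start of each gene was read from RefSeq promoter windows (GRCm38.p6) that run from 250 bases before to 50 bases after a start. Such windows were found for 9 of the 10 genes, Gclc being the one not matched, and 6 of the 9 held the core on at least 1 strand. Of all 27025 genes with a window 14.0% held it, and of the 8611 tested genes with a window 16.9%. Txnrd1 has 3 windows and Pgd has 2, and 1 of each held the core. Keap1, Nqo1 and Ephx1 held no match in their windows, which says only that these letters are not there. The Ephx1 window, at chr1:181017520-181017819, lies inside the gene as GENCODE draws it, so the GENCODE start was not searched. The 6 matches follow, 5′ to 3′ on the strand that reads TGAC, with the core in capitals and 10 bases on each side, to show what the letters of the factor's site look like in these genes.
Nfe2l2, chr2:75704885-75704913, minus strand: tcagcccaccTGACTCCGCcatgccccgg
Gclm, chr3:122245413-122245441, minus strand: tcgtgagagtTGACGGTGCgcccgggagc
Txnrd1, chr10:82859104-82859132, minus strand: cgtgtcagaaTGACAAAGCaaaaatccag
Srxn1, chr2:152105542-152105570, minus strand: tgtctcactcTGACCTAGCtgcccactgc
G6pdx, chrX:74428919-74428947, plus strand: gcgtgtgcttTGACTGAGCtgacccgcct
Pgd, chr4:149166061-149166089, minus strand: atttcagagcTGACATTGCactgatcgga
Counted from the RefSeq start of the window as 1, the core lies at -240 to -232 in Nfe2l2, at -134 to -126 in Gclm, at -92 to -84 in Txnrd1, at -57 to -49 in G6pdx, at 29 to 37 in Srxn1 and at 4 to 12 in Pgd. The Txnrd1 and Pgd matches belong to RefSeq starts that lie inside the gene as GENCODE draws it, and the G6pdx match also lies inside the GENCODE gene, since its RefSeq and GENCODE starts differ. A match is a string of letters and not evidence of binding.

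Levels are given as FPKM, which divides fragments by gene length and library size, so they can be compared between genes. The 6 libraries held 26576291 to 30237490 fragments in DDK and 33963898 to 36105315 in vehicle. Albumin, the main hepatocyte product, stood at an FPKM of 35473 ± 2131 (SD, n = 3) in DDK and 19383 ± 2044 in vehicle, and with the other hepatocyte markers it matched the liver label. The median log2 fold change of all tested genes was -0.23 as deposited, and -0.45, 0.00 and 0.00 after rescaling to TPM, median-ratio scaling and quantile normalization. Directions of small changes therefore hang on the scaling, and fold changes relative to the median of all genes are given beside the deposited ones. On the first principal component, which held 75% of the variance, the DDK livers stood from -36.4 to -23.6, vehicle replicate 1 at 14.1 and vehicle replicates 2 and 3 at 36.2 and 40. The design text gives 3 mice per group, but cage, litter and day of handling are not stated.

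As deposited, transcripts of the factor, its inhibitor and 5 of the 8 targets were called lower in DDK livers. Nqo1 and Ephx1 stood higher without passing the test. By limma with Benjamini-Hochberg adjustment over all 10681 genes, 7 of the 10 fell at an adjusted p under 0.05, where 30.3% of all tested genes fell. The 7 were Nfe2l2, Keap1, Gclc, Txnrd1, Srxn1, G6pdx and Pgd. Of these, Srxn1 was called lower under all 20 alternative settings, Txnrd1 under 19 and the others under 11 to 13. After median-ratio scaling Srxn1 alone was called lower, where 15.4% of all tested genes fell. As deposited none of the 10 rose, where 10.2% of all tested genes did. The count was also 0 at an unadjusted p under 0.05 and by limma's voom on whole fragments. It moved with the setting: Nqo1 and Ephx1 rose after median-ratio scaling, Nqo1 after quantile normalization and Ephx1 with library weights. Of the 10681 tested genes 1963, 1886 and 1571 rose under these settings. For 6 of the 10 every DDK library lay below every vehicle library, against 39.2% of all tested genes. The median log2 fold change of the 10 was -0.47, which is -0.24 relative to all genes.

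**Figure D1:**
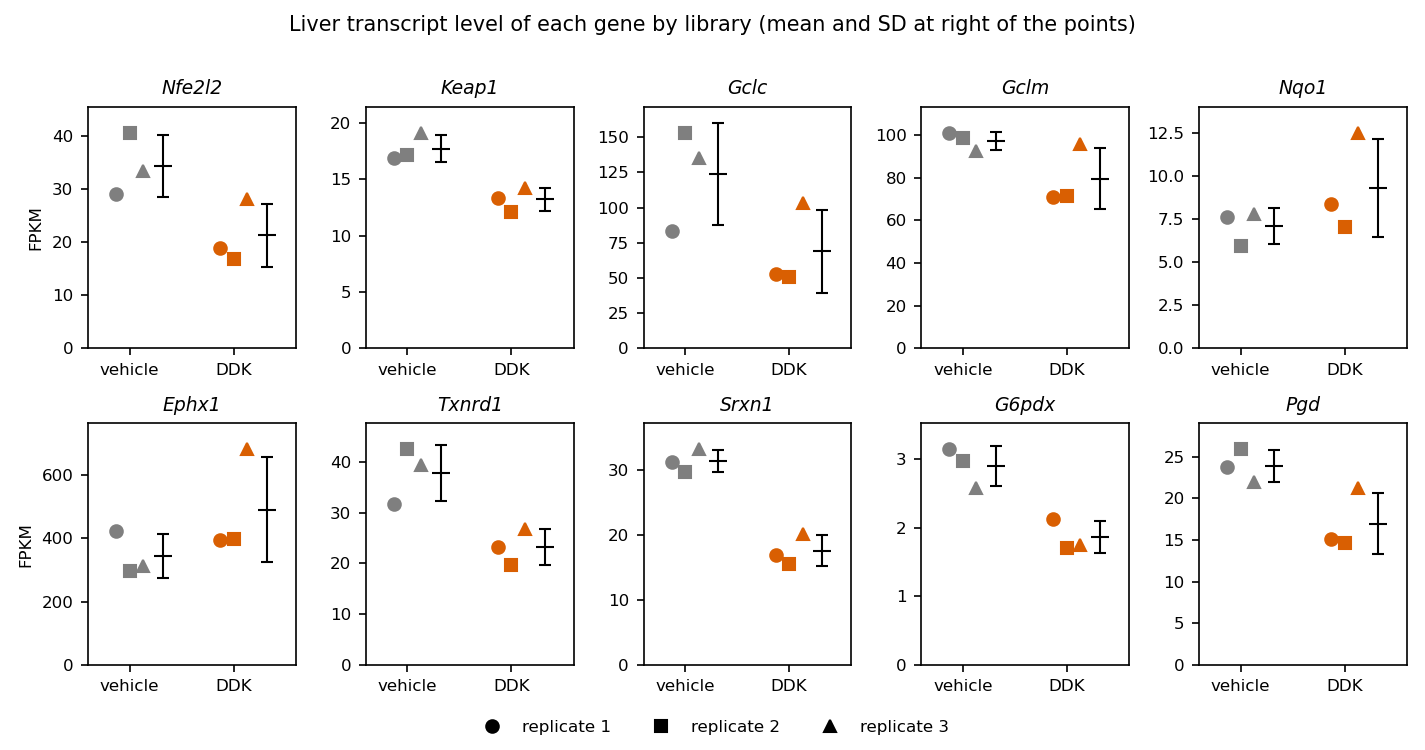
FPKM (vertical axes, from 0) of each gene in the 3 vehicle livers (grey) and the 3 DDK livers (orange), with the replicate number given by the marker and the mean and SD drawn beside the points. All DDK points lie below all vehicle points for Nfe2l2, Keap1, Txnrd1, Srxn1, G6pdx and Pgd, and DDK replicate 3 is the highest DDK liver for every gene but G6pdx.

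Nfe2l2 lies on chromosome 2 at 75675513 to 75704641 (GRCm38, GENCODE M21). Its FPKM was 19.0, 16.9 and 28.1 in DDK replicates 1 to 3 and 29.1, 40.6 and 33.5 in vehicle replicates 1 to 3. The groups did not overlap, but DDK replicate 3 came close to vehicle replicate 1. Nfe2l2 fell from 34.4 ± 5.83 to 21.3 ± 5.93 (SD, n = 3 per group), a log2 fold change of -0.68 ± 0.20 SE on the log2(FPKM + 1) scale and -0.46 relative to all genes (limma adjusted p = 0.0213). After median-ratio scaling it stood at -0.38 ± 0.19 (adjusted p = 0.14), and without DDK replicate 3 at -0.89 ± 0.17 (adjusted p = 0.00598). Leaving out any of DDK replicates 1 or 2 or vehicle replicates 2 or 3 ended the call, with adjusted p from 0.0623 to 0.0918.

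Keap1 (chromosome 9, 21229730 to 21239361) encodes the cysteine-rich sensor that holds NRF2 back. Its FPKM was 13.3, 12.1 and 14.2 in the DDK livers and 16.9, 17.1 and 19.1 in the vehicle livers. Both groups were tight and did not overlap. Keap1 fell by 0.40 ± 0.13 on the log2 scale, from 17.7 ± 1.23 to 13.2 ± 1.09, which is -0.17 relative to all genes (limma adjusted p = 0.0335). After median-ratio scaling the log2 fold change was -0.10 ± 0.12 (adjusted p = 0.532), and leaving out any of DDK replicates 1 or 2 or vehicle replicates 2 or 3 ended the call (adjusted p = 0.069 to 0.134). Exons of Keap1 overlap those of the antisense gene Gm16754 over 510 bases, and reads of the pair cannot be told apart with a kit that does not mark strand.

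Per length, livers held more Nfe2l2 than Keap1 transcript in all 6 libraries. The ratio of their FPKM, which no factor applied to a whole library changes, was 1.43, 1.40 and 1.97 in the DDK livers and 1.72, 2.37 and 1.75 in the vehicle livers. DDK replicate 3 lay within the vehicle range and the other DDK livers below it. The log2 ratio averaged 0.66 ± 0.28 in DDK and 0.95 ± 0.26 in vehicle.

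Gclc and Gclm encode the catalytic and modifier subunits of glutamate-cysteine ligase, the rate-limiting enzyme of glutathione synthesis. Gclc (chromosome 9, 77754535 to 77794485) stood at an FPKM of 53.1, 50.6 and 103 in the DDK livers and 83.3, 153 and 135 in the vehicle livers. DDK replicate 3 was above vehicle replicate 1, so the groups overlapped, and DDK replicates 1 and 2 were the lowest of the 6. Gclc fell from 124 ± 36.3 to 68.8 ± 29.4 (log2 fold change -0.87 ± 0.29 SE, -0.64 relative to all genes, limma adjusted p = 0.0373). The call rests on the library chosen: without DDK replicate 3 the fold change was -1.19 (adjusted p = 0.00674), and leaving out any of DDK replicates 1 or 2 or vehicle replicates 2 or 3 ended it (0.113 to 0.14). After median-ratio scaling it was -0.56 ± 0.27 (adjusted p = 0.139).

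Gclm (chromosome 3, 122245557 to 122270732) stood at 70.8, 71.6 and 95.9 in the DDK livers and 101, 98.4 and 92.7 in the vehicle livers. DDK replicates 1 and 2 were low and DDK replicate 3 lay inside the vehicle range. Its log2 fold change was -0.31 ± 0.14 (limma adjusted p = 0.114), -0.08 relative to all genes. Without DDK replicate 3 it fell by 0.45 ± 0.13 (adjusted p = 0.0286), and after rescaling to TPM by 0.54 (adjusted p = 0.0157) and with library weights by 0.35 (0.0314), but after median-ratio scaling its log2 fold change was 0.00. The catalytic to modifier ratio of FPKM was 0.751, 0.707 and 1.07 in the DDK livers and 0.822, 1.56 and 1.46 in the vehicle livers, so vehicle replicate 1 stood with the DDK livers. Exons of Gclm overlap the opposite-strand gene Gm17494 over 296 bases and the pseudogene Gm6061 over 244 bases. In GENCODE M21 the exons of Gclm cover 6291 bases, against a length of 2072 recovered from the FPKM values. The overlapping bases may therefore lie outside the gene as counted.

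**Figure D2:**
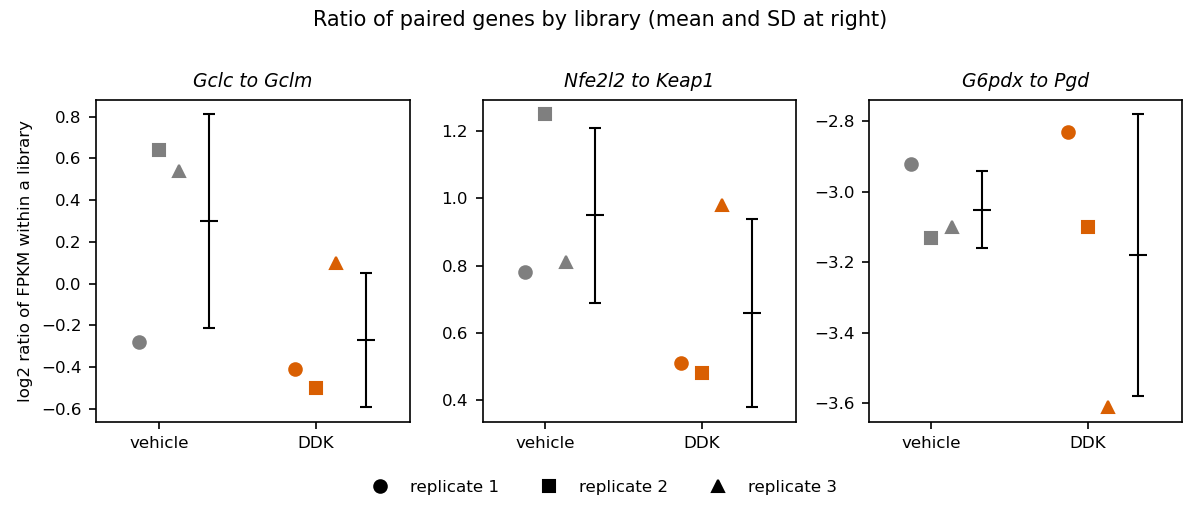
Log2 ratio of FPKM within each library (vertical axes, not starting at 0) for Gclc to Gclm, Nfe2l2 to Keap1 and G6pdx to Pgd in vehicle (grey) and DDK (orange) livers, with mean and SD beside the points. The groups overlap for each of the 3 pairs.

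Txnrd1 and Srxn1 gave the firmest decreases of the 10. Txnrd1 (chromosome 10, 82833951 to 82897712) encodes the cytosolic thioredoxin reductase, which uses NADPH to keep thioredoxin reduced. Its FPKM was 23.3, 19.7 and 26.8 in the DDK livers and 31.7, 42.5 and 39.4 in the vehicle livers, with no overlap. Txnrd1 fell by 0.68 ± 0.16 on the log2 scale, from 37.9 ± 5.58 to 23.3 ± 3.55, or -0.45 relative to all genes (limma adjusted p = 0.00914). The call held when any 1 library was left out (adjusted p = 0.00337 to 0.047) and under 19 of 20 alternatives, the exception being median-ratio scaling (-0.38 ± 0.14, adjusted p = 0.0672).

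Srxn1 (chromosome 2, 152105516 to 152111376) encodes sulfiredoxin, which restores peroxiredoxins that peroxide has over-oxidized. Its FPKM was 17.0, 15.5 and 20.2 in the DDK livers and 31.3, 29.7 and 33.2 in the vehicle livers. Both groups were narrow and lay far apart. Srxn1 fell from 31.4 ± 1.77 to 17.6 ± 2.39, to 56.0% of vehicle, with a log2 fold change of -0.81 ± 0.13 SE and -0.58 relative to all genes (limma adjusted p = 0.00248). It was called lower under all 20 alternatives, with log2 fold changes from -1.05 to -0.51 and adjusted p from 0.000293 to 0.0198.

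G6pdx and Pgd encode glucose-6-phosphate dehydrogenase and 6-phosphogluconate dehydrogenase, the NADPH-forming enzymes of the pentose phosphate pathway. G6pdx (chromosome X, 74409483 to 74429194) was the lowest of the 10, at an FPKM of 2.13, 1.71 and 1.74 in the DDK livers and 3.14, 2.97 and 2.57 in the vehicle livers. The groups did not overlap, and 106 to 265 fragments lay behind each value. G6pdx fell by 0.45 ± 0.14 on the log2(FPKM + 1) scale, where the added 1 shrinks the change of so low a gene, and to 64.2% of vehicle in FPKM (limma adjusted p = 0.0288). After median-ratio scaling the fold change was -0.23 (adjusted p = 0.216), and by limma's voom on whole fragments -0.64 (0.0506). The call also ended when vehicle replicate 2 or either of DDK replicates 2 and 3 was left out (0.0786 to 0.11). Its exons overlap those of Ikbkg on the opposite strand over 418 bases. Ikbkg stood at 5.28, 5.19 and 6.36 in the DDK livers and 5.22, 6.89 and 6.80 in the vehicle livers, above G6pdx in each, and the share of its reads in the G6pdx value was not tested.

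Pgd (chromosome 4, 149149991 to 149166771) stood at 15.1, 14.6 and 21.2 in the DDK livers and 23.8, 25.9 and 22.0 in the vehicle livers. DDK replicate 3 came close to vehicle replicate 3 without reaching it. Pgd fell from 23.9 ± 1.94 to 17.0 ± 3.69 (log2 fold change -0.49 ± 0.16 SE, -0.26 relative to all genes, limma adjusted p = 0.0357). After median-ratio scaling it stood at -0.19 (adjusted p = 0.403), and it lost the call without any of DDK replicates 1 or 2 or vehicle replicates 2 or 3 (0.0666 to 0.141). The G6pdx to Pgd ratio was 0.141, 0.117 and 0.082 in the DDK livers against 0.132, 0.114 and 0.117 in the vehicle livers.

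Nqo1 and Ephx1 were the only 2 of the 10 with a higher mean in DDK. Nqo1 (chromosome 8, 107388225 to 107403206) encodes a quinone reductase much used as a readout of NRF2 activity, and the aryl hydrocarbon receptor also induces it. Its FPKM was 8.39, 7.02 and 12.5 in the DDK livers and 7.61, 5.92 and 7.78 in the vehicle livers, with 408 to 830 fragments behind each value. DDK replicate 3 was high, and DDK replicate 2 lay inside the vehicle range. The log2 fold change was 0.32 ± 0.20 SE (limma adjusted p = 0.219) and 0.55 relative to all genes. It passed the test after median-ratio scaling (0.59 ± 0.20, adjusted p = 0.0415) and quantile normalization (0.60, 0.0407), and stood at 0.11 ± 0.18 without DDK replicate 3 (adjusted p = 0.654).

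Ephx1 (chromosome 1, 180976210 to 181020904) encodes microsomal epoxide hydrolase, which the nuclear receptors CAR and PXR also induce in liver. It was the most abundant of the 10, at an FPKM of 395, 397 and 681 in the DDK livers and 424, 296 and 313 in the vehicle livers. DDK replicate 3 was high, and vehicle replicate 1 lay above the other 2 DDK livers. The log2 fold change was 0.48 ± 0.23 SE (limma adjusted p = 0.115), 0.71 relative to all genes. It passed after median-ratio scaling (0.79 ± 0.26, adjusted p = 0.0441) and with library weights (0.47, 0.0478). Without DDK replicate 3 it stood at 0.22 ± 0.18 (adjusted p = 0.356), and without vehicle replicate 1 at 0.64 ± 0.24 (0.0514). Its exons overlap the pseudogene Gm36961 over 72 bases.

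Nqo1 and Ephx1 were also set against the other 8 genes within each library, as ratios of deposited FPKM. A factor applied to a whole library leaves such ratios as they are, whereas quantile normalization does not, and no ratio was computed after it. Of the 16 ratios of Nqo1 or Ephx1 to another of the 10 genes, all 16 were higher in every DDK liver than in every vehicle liver. Ephx1 to Srxn1 was 23.2, 25.6 and 33.7 in the DDK livers and 13.5, 9.99 and 9.44 in the vehicle livers. Nqo1 to Srxn1 was 0.493, 0.452 and 0.621 against 0.243, 0.200 and 0.234. Among all 45 pairs of the 10 genes the ratio did not overlap between groups for 20, where 48.2% of all pairs of tested genes above 0 in every library did not overlap. The other 4 such pairs were Keap1 to Srxn1, Gclm to Srxn1, Gclm to Pgd and Srxn1 to Pgd. These ratios were chosen after the values were seen and share genes and libraries, and no test was made on them. Nqo1 and Ephx1 alone of the 10 had a higher mean in DDK, so an upward lean of their ratios follows from that choice.

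DDK replicate 3 had the highest FPKM of the DDK livers for 9 of the 10 genes, G6pdx being the exception, where it was the highest for 41.4% of all tested genes. DDK replicate 2 was the lowest for 8 of the 10, against 43.4% of all tested genes. Without DDK replicate 3, 7 of the 10 genes fell, Gclm joining and G6pdx leaving, where 26% of all tested genes fell. Without vehicle replicate 1 the same 7 fell as with all libraries, where 40.5% of all tested genes fell. Fewer fell when any other library was left out. Without DDK replicate 1 or 2, 3 and 2 of the 10 fell, where 2154 and 1738 of the 10681 tested genes did. Without vehicle replicate 2 or 3, 2 and 3 of the 10 fell, where 2224 and 1847 of the 10681 did.

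The balance of the 10 genes moved with the scaling. After median-ratio scaling only Srxn1 fell and Nqo1 and Ephx1 rose, where 15.4% of all tested genes fell and 18.4% rose. After quantile normalization Txnrd1 and Srxn1 fell and Nqo1 rose, against 16.3% and 17.7% of all tested genes. After rescaling to TPM 8 of the 10 fell, where 46.1% of all tested genes fell and 5.91% rose. Other settings ended calls as well. Without the filter Nfe2l2, Gclc, G6pdx and Pgd lost theirs (limma adjusted p = 0.0581 to 0.122), and without the 20 most abundant genes Keap1, Gclc, G6pdx and Pgd did (0.0703 to 0.122). Among all tested genes, 2500 of 16573 fell without the filter and 2368 of 10661 without the 20 most abundant. After a correction for gene length Keap1 (0.094) and Gclc (0.0655) lost theirs, where 3012 of the 10681 tested genes fell. Relative to the median of all genes 8 of the 10 lay below and Nqo1 and Ephx1 above under each of these scalings. By definition as many genes lie below that median as above it. After median-ratio scaling Gclm, at 0.00, differed from the median only beyond the digits given.

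**Figure D3:**
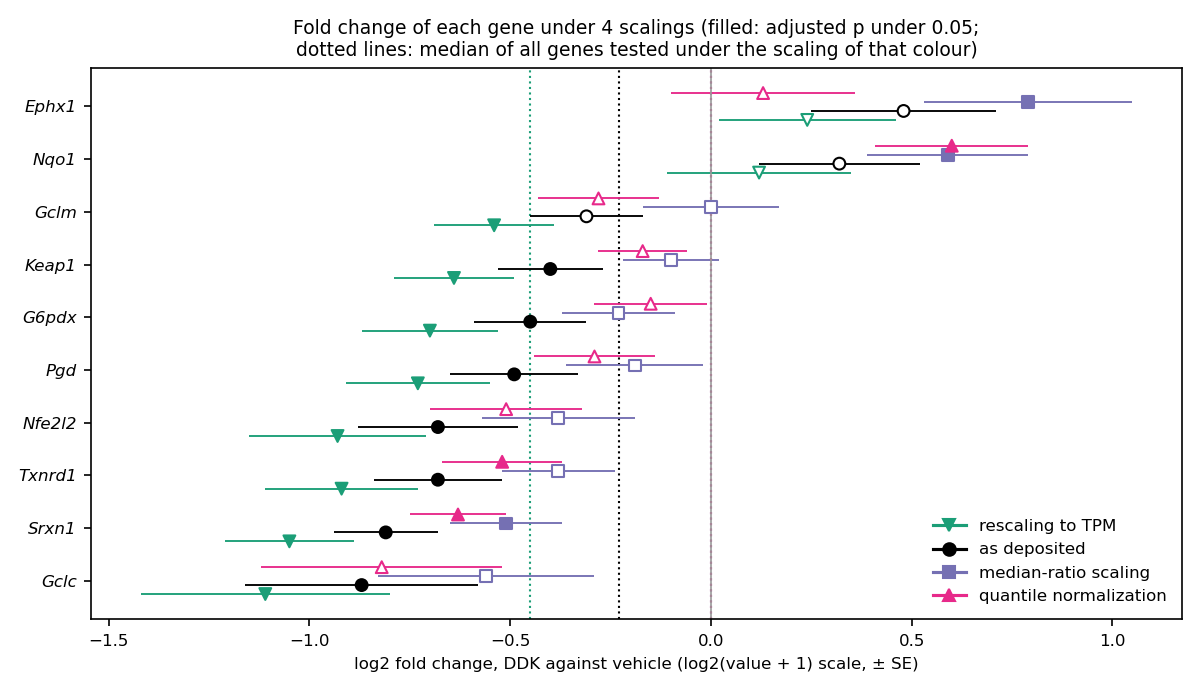
Log2 fold change of each gene, DDK against vehicle, with its SE (horizontal axis) under 4 scalings of the same values; filled markers have an adjusted p under 0.05 and dotted lines mark the median of all tested genes, both at 0.00 for median-ratio scaling and quantile normalization. Srxn1 is filled under all 4, and Nqo1 and Ephx1 lie to the right of each median.

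Other genes of the pathway were taken from lists chosen by role. The counts of these lists and of the cell type markers stand against 10.2% of all tested genes that rose and 30.3% that fell as deposited, and nothing particular to a list is read from them. With median-ratio factors 18.4% rose and 15.4% fell, with quantiles made equal 17.7% and 16.3%, and as TPM 5.91% and 46.1%. After the correction for gene length 899 rose and 3012 fell of the 10681 tested genes. Of 16 regulators and partners of NRF2, 2 rose and 2 fell, with a median log2 fold change of -0.15. Nfe2l1, which encodes the related factor NRF1, fell by 0.75 ± 0.18, from an FPKM of 33.1 ± 7.34 to 19.1 ± 3.07 (limma adjusted p = 0.0101), a call lost only under median-ratio scaling (-0.45, 0.0547). The small MAF gene Mafk fell by 0.53 (0.0301). Rbx1, the RING subunit of the ligase that KEAP1 serves, rose by 0.43 (0.0333), and the coactivator gene Crebbp by 0.52 (0.0141). The calls of Mafk and Rbx1 were lost without any of DDK replicates 1 or 2 or vehicle replicates 2 or 3 (0.0797 to 0.133), and that of Crebbp without DDK replicate 1 (0.0585) or vehicle replicate 3 (0.0564). Of these genes 4 rose and 0 fell with median-ratio factors, 3 and 1 with quantiles made equal, and 0 and 6 as TPM, where Rbx1 (0.20, 0.215) and Crebbp (0.44, 0.0557) lost their calls.

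Of 14 tested genes of glutathione, thioredoxin and peroxide handling besides the 10, 3 rose and 1 fell. Sod1, cytosolic superoxide dismutase, rose from 1819 ± 448 to 3377 ± 535 (log2 fold change 0.91 ± 0.21, limma adjusted p = 0.00862). Thioredoxin, Txn1, rose by 0.46 (adjusted p = 0.0331) and the mitochondrial thioredoxin reductase gene Txnrd2 by 0.58 (0.0113), while the cytosolic reductase gene Txnrd1 fell. Slc3a2, the heavy chain of the cystine importer, fell by 0.60 (0.019). Sod1 kept its call whichever library was left out, but after the correction for gene length it stood at 0.21 (0.16), and Txn1 at 0.09 (0.532). Txnrd2 lost it without DDK replicate 1 (0.0505) or 2 (0.053), Slc3a2 without DDK replicate 2 (0.0855) or vehicle replicate 3 (0.0758), and Txn1 without any library but vehicle replicate 1 (0.0764 to 0.135). Its light chain gene Slc7a11, a much-used NRF2 target in cultured cells, was at an FPKM of at most 0.0407 in any liver and was not tested. Of the 14, 5 rose and 0 fell with median-ratio factors, where Slc3a2 stood at -0.37 (0.0839), 3 and 3 did so with quantiles made equal, 2 and 5 as TPM, and 1 and 4 after the correction for gene length.

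Among 6 other NADPH supply genes 1 rose and 2 fell. Me1, cytosolic malic enzyme, which also serves fatty acid synthesis, fell from 61.4 ± 15.4 to 26.0 ± 11.1 (log2 fold change -1.25 ± 0.27, limma adjusted p = 0.00691) and was called under all 20 alternatives. Taldo1, transaldolase, fell by 0.50 (adjusted p = 0.0118), a call lost without DDK replicate 1 (0.0562) and after median-ratio scaling (-0.19, 0.405). Pgls, whose product acts between those of G6pdx and Pgd, rose by 0.75 ± 0.18 (0.00999), a call lost after the correction for gene length (0.27, 0.105).

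Of 7 heme and iron targets 1 rose and 2 fell. Hmox1, heme oxygenase 1, averaged 27.7 ± 6.76 FPKM in vehicle and fell to 5.46 ± 1.83 (log2 fold change -2.16 ± 0.22, limma adjusted p = 0.000508), the largest decrease among the tested genes of all these lists of the pathway. Fech, ferrochelatase, fell by 0.91 ± 0.17 (adjusted p = 0.00383), and the biliverdin reductase gene Blvrb rose by 0.94 ± 0.21 (0.00799). Each of these 3 calls held under all 20 alternatives.

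Of 15 tested genes of other detoxification targets 2 rose and 3 fell. Cyp2a5, a cytochrome P450 that NRF2 and CAR induce, rose from 355 ± 148 to 1164 ± 259 (log2 fold change 1.77 ± 0.28, limma adjusted p = 0.00197), a value that may share reads with its near-identical copies. Osgin1 rose by 1.18 ± 0.34 (adjusted p = 0.022), from 35.9, 71.9 and 61.8 in the vehicle livers to 204, 126 and 75.2 in the DDK livers. That call was lost when DDK replicate 1 (0.83, 0.0688) or 2 (0.0676) was left out, and likewise for vehicle replicate 1 (0.063) or 3 (0.0517) and without a filter on low values (0.0911). Cbr3, a carbonyl reductase, fell by 1.20 ± 0.26 (0.00703) and Abcc2, a canalicular export pump, by 0.99 ± 0.31 (0.0301), although vehicle replicate 1 lay inside the DDK range. The Abcc2 call was lost without any of DDK replicates 1 or 2 or vehicle replicates 2 or 3 (0.0856 to 0.119). Of the 15, 5 rose and 1 fell with median-ratio factors, 2 and 2 with quantiles made equal and 2 and 4 as TPM.

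Glutathione transferases, which NRF2, CAR and PXR all induce, are given beside the 10 genes for comparison. Of 19 tested, 11 rose and 1 fell, and 13 and 0 did so with median-ratio factors, 10 and 1 with quantiles made equal, 8 and 1 as TPM and 7 and 1 after the correction for gene length. Gstm3 rose by 3.57 ± 0.32 (limma adjusted p = 0.000275) and Gsta1 by 3.54 ± 0.37 (0.000508), though near-identical copies make their division uncertain. Of 9 tested genes of the CAR and PXR list 6 rose, among them Nr1i3, the CAR gene itself, by 1.10 ± 0.25 (0.00793) and Cyp3a11 by 2.16 ± 0.22 (0.000432). In the 4 tested genes of the aryl hydrocarbon receptor, Cyp1a2 rose by 0.39 (0.0416) and Ahr fell by 0.43 (0.0438). The Ahr call was lost without any of DDK replicates 1 or 2 or vehicle replicates 2 or 3 (0.106 to 0.171), and the Cyp1a2 call without any library but vehicle replicate 1 (0.0718 to 0.154). The part of CAR, PXR or the aryl hydrocarbon receptor in the Nqo1 and Ephx1 values was not tested.

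**Figure D4:**
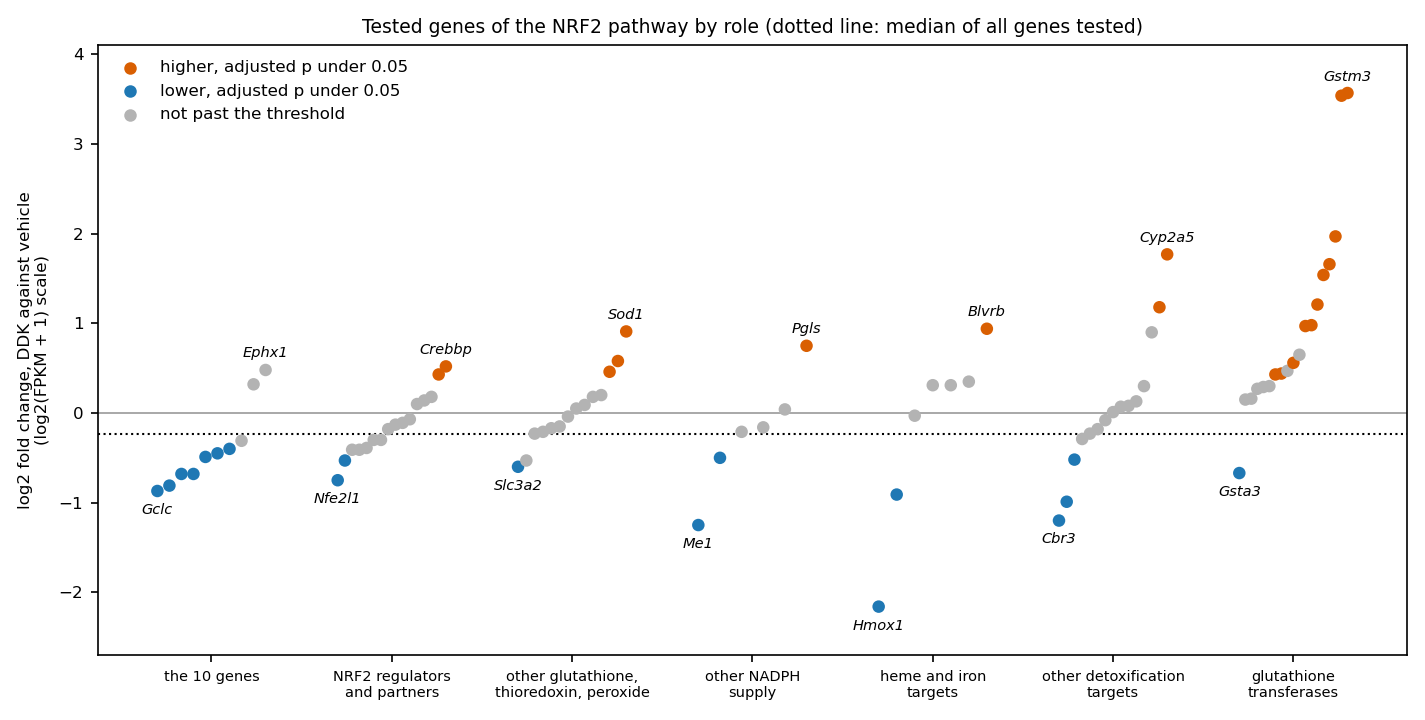
Log2 fold change (vertical axis) of each tested gene by role, with genes past the threshold in orange (higher in DDK) or blue (lower) and the lowest and highest gene of each role named; the dotted line is the median of all tested genes at -0.23. Of the 10 genes 7 are blue, while 11 of the 19 glutathione transferases are orange.

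In whole liver, fewer cells of a type and less RNA per cell cannot be told apart, and the cell types differed between the groups in their markers. Of 10 macrophage and Kupffer cell markers 6 fell, and the summed FPKM of the 10 was 65.3 to 166 in DDK and 277 to 503 in vehicle. The markers Clec4f (-0.35), Timd4 (-0.01), Marco (-0.32) and Vsig4 (-0.61) overlapped between groups and were not called. Lyz2 weighed most in the vehicle sums, at 193, 168 and 312 in vehicle and 53.9, 37.4 and 23.2 in DDK. Of 10 stellate cell and fibroblast markers 7 fell, with sums of 62.5 to 86.1 and 139 to 181. Of 8 endothelial markers 4 fell, with sums of 43.7 to 56.0 and 69.1 to 101. The sums of the 8 cholangiocyte markers overlapped, at 36.6 to 63.1 and 46.5 to 69.8. Spp1 weighed most in them, at 32.8, 37.3 and 57.2 in DDK and 43.5, 47.5 and 63.0 in vehicle. Of 6 tested 1 rose, Krt7, which did not overlap between groups. Of 9 hepatocyte markers 4 rose and 1 fell, with sums of 62613 to 65571 and 37914 to 49194. Of 8 pericentral hepatocyte markers 1 rose and 3 fell, and of 7 periportal markers 3 rose. Of 4 tested T, NK and B cell markers none passed, with sums of 6.99 to 14.5 and 5.27 to 11.5, and of 3 tested neutrophil markers 1 fell, with sums of 2.5 to 8.92 and 10.7 to 14.5. None of these markers was at 0 in all libraries. The part of these cell types in the values of the 10 genes, and of the other genes of the pathway such as Hmox1, was not tested.

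Over the 6 libraries, the 5 tested genes whose log2(FPKM + 1) followed Nfe2l2 most closely were Grsf1 (Pearson r = 0.999), Ubxn4 (0.998), Tm9sf2 (0.996), Mttp (0.995) and Ssr3 (0.994). The points share library, depth and group, so this is a description of 6 values chosen from 10681 genes. Of the 5, Mttp and Ssr3 fell, by 0.66 (limma adjusted p = 0.0159) and 0.83 (0.00969), and Grsf1, Ubxn4 and Tm9sf2 stood at -0.41, -0.25 and -0.33 without passing the test. After median-ratio scaling Mttp and Ssr3 lost the call (-0.35 and -0.52, adjusted p = 0.152 and 0.0636), and Ubxn4 stood at 0.05.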

How the data were processed

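The authors deposited 1 table of FPKM values for 22173 gene symbols in 6 liver libraries. The genome build was GRCm38 (mm10) per the submitters' processing notes, and the aligner, counting program and gene annotation are "not given in the sources used here". Per the labels' protocols, libraries were made from total RNA with a NEBNext Ultra RNA kit. That kit leaves strand unmarked. All exon overlaps were read from GENCODE M21, which need not be the annotation behind the FPKM values. Library totals and gene lengths were recovered from the FPKM values: for 100.0% of the 16573 symbols above 0 a whole length was found at which all values were whole fragments within 0.01. Fragments give the depth only, and no test on counts was a main result.

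Genes reaching 0.5 FPKM in 3 or more libraries were tested on log2(FPKM + 1), scaled as deposited, with limma 3.58.1 in R 4.3.3 (variance trend, Benjamini-Hochberg adjustment, threshold 0.05). Fold changes carry limma's SE and FPKM values the SD. The test was checked on simulated data with as many genes raised as lowered and no shift of the rest. That check therefore does not bear on the choice of scaling. The 10 genes and all gene lists were chosen with earlier results of these data known. The genes to name were the 10, up to 4 genes of smallest p in each other list, Hmox1, Slc7a11 and the 5 genes most like Nfe2l2. Of the pathway lists, genes that passed the test are described, some of them left out, along with Slc7a11, which the filter removed. Alternatives were other pseudocounts, filters, scalings, a length correction, library weights, a replicate block, variance options, voom on recovered fragments and each library left out. The labels do not say whether replicate numbers pair the samples, and the main test did not pair them.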

Additional observations from a re-analysis of the deposited data

How the results depend on the processing

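As deposited 0 of the 10 genes rose and 7 fell. The number that fell was 3 without a filter, 1 with median-ratio factors, 2 with quantiles made equal and 3 without the 20 most abundant genes, and 2 to 7 when 1 library was left out (2 without DDK replicate 2 or vehicle replicate 2, 3 without DDK replicate 1 or vehicle replicate 3). The number that rose was 2 with median-ratio factors, 1 with quantiles made equal and 1 with library weights, and 0 when any 1 library was left out. Over all genes, 1093 rose and 3234 fell as deposited, 1963 and 1650 with median-ratio factors, 1886 and 1743 with quantiles made equal, and 631 and 4929 as TPM. Without a filter 864 rose and 2500 fell of 16573 genes, and without the 20 most abundant genes 1435 and 2368 of 10661. With library weights 1571 rose and 4697 fell, and after the correction for gene length 899 and 3012. When 1 library was left out, 610 to 1356 rose and 1738 to 4330 fell. Srxn1 was called lower under all 20 alternatives and Txnrd1 under 19, and Nfe2l2, Keap1, Gclc, G6pdx and Pgd under 13, 12, 11, 12 and 12. Gclm turned from -0.31 to 0.00 and Ubxn4 from -0.25 to 0.05 after median-ratio scaling, and the G6pdx to Pgd difference in log2 ratio from -0.13 to 0.04 with a pseudocount of 1. With the replicate block 0 of the 10 rose and 7 fell, and 1052 and 3082 over all genes. The deviations of same-numbered libraries correlated at 0.14, -0.15 and 0.06. Deviations from a mean of only 3 libraries cannot settle whether the numbers pair. They were not taken as a pairing because the labels do not state one. The cause of these shifts was not tested. The lowest of the 10, G6pdx, had 106 to 265 fragments per library, which limits its precision.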
